A study of Caenorhabditis elegans with 6 samples.

Results

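The transthyretin-like (ttr) genes of Caenorhabditis elegans were taken as all protein-coding features whose WormBase symbol is ttr followed by a number. The table held 58 of them among 45343 features. One further row of that name, ttr-4 (F40F12.1), is annotated as a pseudogene and was kept apart. RNA came from larvae synchronised by bleaching, grown on agar plates and taken midway through the L3, the larval stage before the last one. The control was the wild-type (WT) strain N2 Bristol with 3 libraries, and the other group was the mutant blmp-1(tm548), also with 3. BLMP-1 is a zinc-finger factor of the same family as mammalian Blimp-1, and the comparison asks which transcripts differ when it is mutated. The labels name the replicates as biological but not which cultures they came from, so the p-values measure the spread between these samples, part of which may be technical.

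Transthyretin itself is a vertebrate serum and cerebrospinal fluid protein that carries thyroid hormone and binds the retinol-binding protein. Nematodes have expanded a distantly related family of short proteins, most of which carry a signal peptide and are thought to be secreted, and for most members no function is known. A few have been studied in C. elegans: TTR-52 is a secreted protein that binds phosphatidylserine exposed on dying cells and bridges it to the engulfment receptor CED-1, TTR-11 acts with the phosphatidylserine receptor PSR-1 in the fusion of severed axons, and TTR-33 protects dopaminergic neurons from oxidative damage. In the WBcel235 annotation the 58 members were short and alike in build. The median coding length was 429 nt, 53 members had 390 to 540 nt, and 57 had 2 to 5 coding exons. The exception in both respects was ttr-14, with 1218 nt in 9 coding exons, and the shortest was ttr-57 with 267 nt.

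Levels are given in FPKM, fragments scaled by transcript length and by the fragments mapped in the library. Steps among the low values put the depth at an estimated 7550000 to 8120000 reads per library, so that 1 FPKM on a transcript of 1 kb was on average about 7.88 reads (7.55 to 8.12 between libraries). The blmp-1 transcript (F25D7.3) was read first as a check of the labels. Its values were 64.9, 71.1 and 75.2 FPKM in WT and 40.3, 36.9 and 38.0 in the mutant, so the groups did not overlap (log2 difference -0.86, SE 0.0715, limma adjusted p = 0.00299). The labels do not say which part of the gene the allele alters, so this is a partial check.

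On the FPKM scale many members were high. A mean of 100 FPKM or more over the 6 libraries was reached by 22 of the 58 members, 21 lay between 20 and 100 FPKM, 8 between 1 and 20, and 7 below 1. The median of the 51 members at or above 1 FPKM was 92.7 FPKM, against 35.7 FPKM for all 14954 protein-coding features of at least 300 nt that passed the same limit. Of those features 14.7% reached 100 FPKM, as did 43.1% of the 51 members.

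The most abundant was ttr-16 (Y5F2A.1), at 224, 238 and 231 FPKM in WT and 218, 232 and 233 in the mutant. Next by mean level were ttr-18 (203 FPKM), ttr-15 (182), ttr-2 (181), ttr-41 (181), ttr-46 (172), ttr-51 (166), ttr-24 (160), ttr-36 (153) and ttr-8 (152). The means of ttr-15, ttr-2 and ttr-41 lay closer together than the replicate SD of ttr-2, which was 18.5 FPKM in WT and 15.1 in the mutant, so their order is not resolved. Of these 10 members ttr-15 alone was called; the next smallest adjusted p were those of ttr-8 (0.0725), ttr-18 (0.0765) and ttr-36 (0.0861). These 10 genes supplied 40.9 ± 1.37% of the summed ttr FPKM of WT libraries and 39.5 ± 0.841% of that of mutant libraries (SD, n = 3).

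On the FPKM scale some of these levels were close to those of transcripts from highly expressed genes. The means of 6 such genes, for myosin heavy chain (unc-54), actin (act-1 and act-4), a translation elongation factor (eef-1A.1) and ribosomal proteins (rpl-3 and rps-3), lay between 196 and 247 FPKM. Of the ttr members, ttr-16 and ttr-18 stood within that narrow band and none above it, and 0.963% of the 14954 protein-coding features had more than 240 FPKM. Among protein-coding features the median absolute log2 difference between mutant and WT was 0.0585 at 100 FPKM or more (n = 2192), 0.117 at 20 to 100 FPKM (n = 7480) and 0.248 at 1 to 20 FPKM (n = 5282). For ttr members the same medians were 0.18, 0.33 and 0.58. Whether values in the highest range move in proportion to the transcript was not tested. A like value there therefore does not show a like amount of transcript, and a small difference there does not show a small change.

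**Figure D1:**
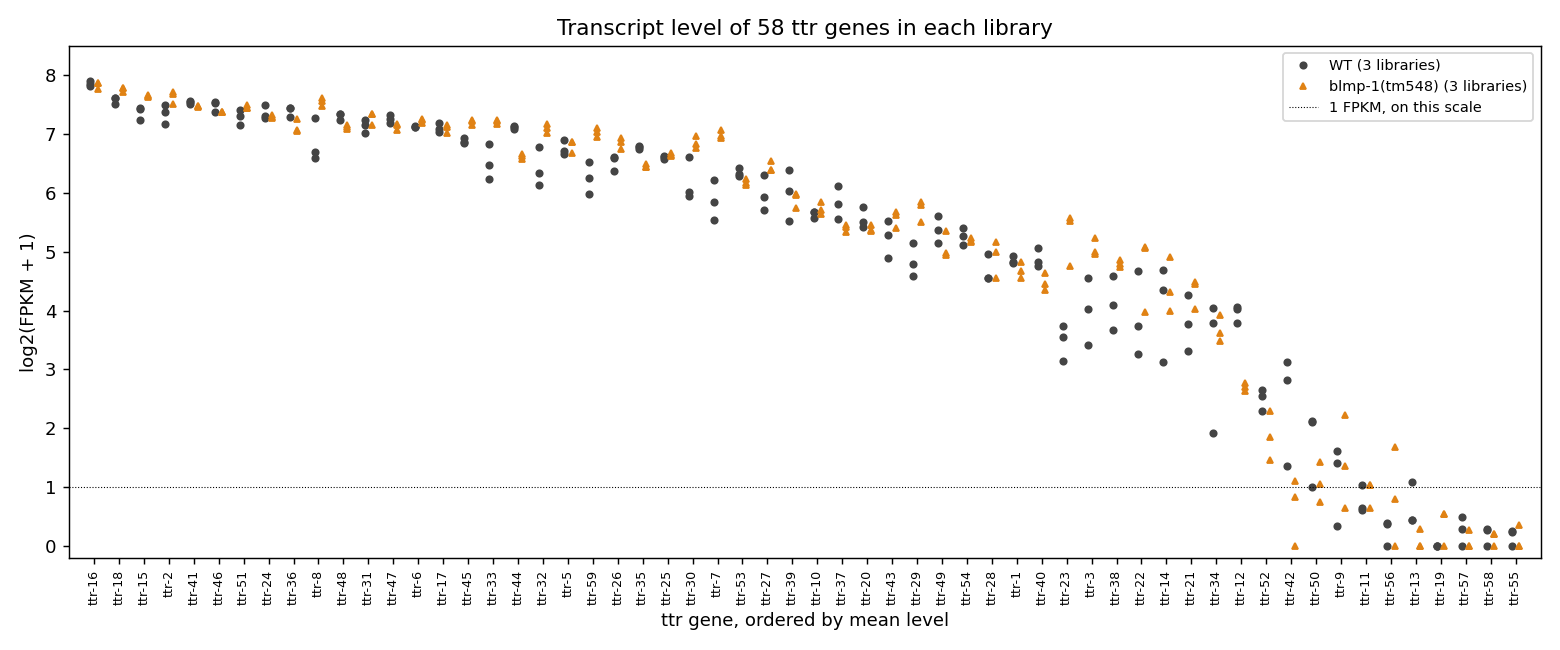
Level of the 58 ttr genes, as log2(FPKM + 1), in the 3 WT libraries (circles) and the 3 mutant libraries (triangles), ordered by mean level. The 22 genes at the left have a mean of 100 FPKM or more, the 7 at the right a mean under 1 FPKM.

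At the other end, 7 members had a mean under 1 FPKM and fell below the limit for testing: ttr-11, ttr-13, ttr-19, ttr-55, ttr-56, ttr-57 and ttr-58. None was at 0 in every library. The values of ttr-11 (F46B3.3) were 1.04, 0.559 and 0.532 FPKM in WT and 1.06, 1.05 and 0.562 in the mutant, which is about 3.23 reads per library. Only ttr-19 was listed at 0 in a whole group, with 0 in all WT libraries and 0.446, 0.446 and 0 FPKM in the mutant. For ttr-13 (Y44A6B.4) the WT values were 0.347, 1.11 and 0.353 FPKM and the mutant values 0, 0 and 0.216, and ttr-56 (F56F4.9) reached 2.22 FPKM in mutant replicate 1 and 0.740 or less elsewhere. With no limit on the level, limma called none of the 7; ttr-13, whose mutant values were all below those of WT, was the one with an unadjusted p under 0.05 (0.0377, adjusted p = 0.227).

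Levels of 10 ttr transcripts differed between the groups. Of the 51 tested, 7 rose in the mutant (ttr-7, ttr-15, ttr-23, ttr-29, ttr-33, ttr-45 and ttr-59) and 3 fell (ttr-12, ttr-35 and ttr-44), by limma on log2(FPKM + 1) with Benjamini-Hochberg adjustment over 17058 features and an adjusted p under 0.05. The other 41 did not pass. Over all tested features 3.34% rose and 3.06% fell, 6.4% in all, against 13.7% and 5.88% of the tested members. Among protein-coding features of at least 300 nt with a mean of at least 20 FPKM the background was 3.58% higher and 3.29% lower, against 16.3% and 4.65% of the 43 members at that level. The largest changes were 3.77-fold up for ttr-23 in mean FPKM and a fall of ttr-12 to 0.377 of its WT mean, and the smallest was the rise of ttr-15 to 1.21 times its WT mean.

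The number of rises depended on the libraries, within the family and over all features. In the family it was 12 without WT replicate 1, 1 without WT replicate 2, 4 without WT replicate 3, 1 without mutant replicate 1, 0 by limma without mutant replicate 2 (14 members higher at an unadjusted p under 0.05) and 4 without mutant replicate 3, while the number of falls stayed between 2 and 4. In the same order, 526, 192, 379, 237, 209 and 620 of all tested features rose, against 570 with all libraries. As shares, 23.5% of the tested members and 3.08% of all features rose without WT replicate 1, and 0% and 1.24% without mutant replicate 2. All 10 changes kept their direction in each of the 14 alternative settings.

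The ratio of mean FPKM was above 1.5 for 5 of the 7 genes that rose. The largest rise was that of ttr-23 (T21C9.8), from 12.4, 7.88 and 10.8 FPKM in WT to 44.8, 46.4 and 26.0 in the mutant. Every mutant library lay above every WT library, and mutant replicate 3 stood below the other two. The log2 difference was 1.80 (SE 0.264, limma adjusted p = 0.0167). With WT replicate 2, mutant replicate 1 or mutant replicate 2 left out, the adjusted p rose to 0.0652, 0.0679 and 0.0658.

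For ttr-7 (T19C3.9) the WT libraries held 73.7, 56.7 and 45.5 FPKM, and the mutant libraries 133, 121.9 and 125. The WT values were spread more widely than the mutant ones and all lay far below them (log2 difference 1.13, SE 0.166, limma adjusted p = 0.0167). It missed the threshold when WT replicate 2, mutant replicate 1 or mutant replicate 2 was omitted (adjusted p = 0.0766, 0.0701 and 0.0628). The annotation has 74 nt of ttr-7 exons opposite those of best-17. That gene averaged 39.3 ± 6.94 FPKM in the WT libraries and 48.0 ± 10.9 FPKM in the mutant libraries (SD, n = 3, adjusted p = 0.496), and no source used here tells whether the counting used strand.

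The values of ttr-29 (R90.4) were 34.7, 26.8 and 22.9 FPKM in WT and 56.8, 54.5 and 44.2 in the mutant. The lowest mutant library stood above the highest WT library (log2 difference 0.87, SE 0.169, limma adjusted p = 0.0371). The call ended when WT replicate 2 or 3 was omitted (adjusted p = 0.139 and 0.0730) and when mutant replicate 1 or 2 was (0.134 and 0.129).

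The transcript of ttr-59 (T08A9.11) stood at 91.6, 75.4 and 61.9 FPKM in WT and at 136, 131 and 123 in the mutant, again without overlap (log2 difference 0.78, SE 0.138, limma adjusted p = 0.0286). Omitting WT replicate 2 ended this call (adjusted p = 0.113), as did omitting mutant replicate 1, 2 or 3 (0.110, 0.103 and 0.0548).

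The gene of the neuroprotective protein TTR-33 (C37C3.13) was at 113, 87.5 and 74.7 FPKM in WT and at 151, 144 and 148 in the mutant. The mutant libraries were close together and all above the WT libraries, which were spread (log2 difference 0.70, SE 0.144, limma adjusted p = 0.0434). It stayed called when WT replicate 1 was omitted (adjusted p = 0.00779), but not when WT replicate 2 or 3 (0.160 and 0.0638) or mutant replicate 1, 2 or 3 was (0.147, 0.129 and 0.0930). An exon of ttr-33 shares 42 nt with txt-5 on the same strand in the annotation. Levels of txt-5 were 23.8 ± 6.16 and 31.6 ± 4.87 FPKM (SD, n = 3, adjusted p = 0.280).

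Smaller rises were those of ttr-45 and ttr-15. The WT libraries of ttr-45 (JC8.14) held 115, 121.9 and 115 FPKM and the mutant libraries 142, 148 and 151. Both groups were tight, and the difference of 1.25-fold in the mean was larger than either spread (log2 difference 0.32, SE 0.0438, limma adjusted p = 0.0129). Among the 6 settings with a library left out, that without mutant replicate 2 ended the call (adjusted p = 0.0614). For ttr-15 (T07C4.5), which ranks after ttr-16 and ttr-18 by level, the values were 172, 171 and 150 FPKM in WT and 198, 201 and 200 in the mutant (log2 difference 0.28, SE 0.0598, limma adjusted p = 0.0492). The groups did not overlap, but without any single library ttr-15 missed the threshold (adjusted p = 0.0522 to 0.159).

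Of the 3 falls, those of ttr-44 and ttr-12 were called whichever library was omitted. The transcript of ttr-44 (C56A3.2) was at 138, 139 and 135 FPKM in WT and at 100.1, 94.1 and 98.3 in the mutant. Replicates differed by a few FPKM and the groups by about 40, from a mean of 137 ± 2.30 to 97.5 ± 3.09 FPKM (SD, n = 3, log2 difference -0.49, SE 0.0400, limma adjusted p = 0.00275). It was called in all 14 alternative settings (adjusted p = 0.000591 to 0.0199). In the annotation 167 nt of ttr-44 lie opposite exons of R11G10.3, a gene with means of 7.80 ± 1.73 and 7.32 ± 0.407 FPKM in the WT and mutant libraries (SD, n = 3).

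The lowest level among the called members was that of ttr-12 (F46B3.4), with 12.8, 15.7 and 15.3 FPKM in WT and 5.20, 5.85 and 5.53 in the mutant. All mutant libraries were below all WT libraries, and none of the replicates stood apart (log2 difference -1.26, SE 0.132, limma adjusted p = 0.00636). It also passed in all 14 alternative settings (adjusted p = 0.000913 to 0.0378).

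For ttr-35 (F22A3.2) the WT values were 110, 110 and 106 FPKM and the mutant values 86.4, 86.0 and 89.4. The fall was to 0.802 of the WT mean, with an SD of about 2 FPKM in each group (log2 difference -0.31, SE 0.0386, limma adjusted p = 0.00988). Omitting WT replicate 2, mutant replicate 1 or mutant replicate 2 raised its adjusted p above 0.05 (adjusted p = 0.0563, 0.0521 and 0.0503).

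**Figure D2:**
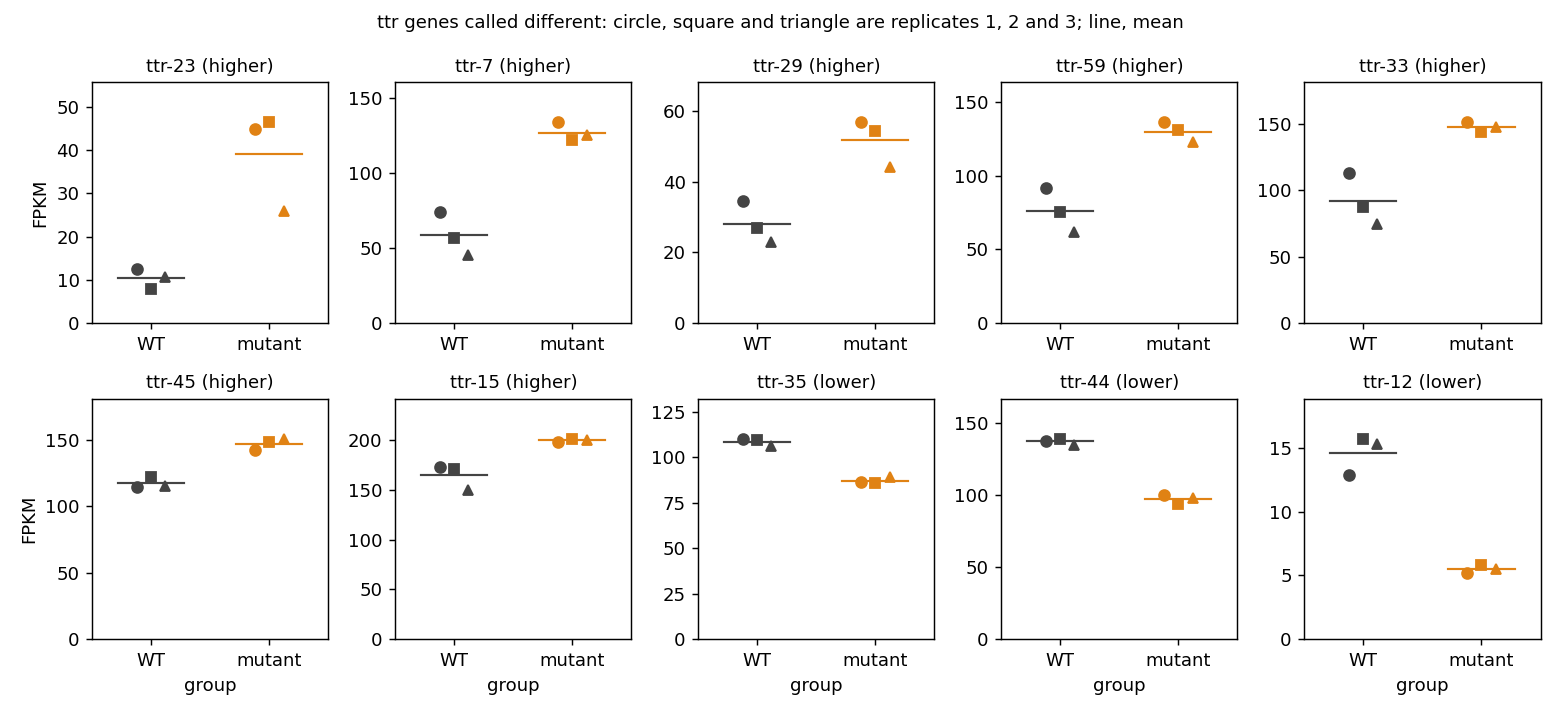
FPKM of the 10 ttr genes called different, with WT libraries in dark grey and mutant libraries in orange; circle, square and triangle are replicates 1, 2 and 3, and the line is the group mean. In each panel the groups do not overlap, and the WT values of ttr-7, ttr-29, ttr-33 and ttr-59 are spread more widely on the vertical axis than those of ttr-35, ttr-44 and ttr-45.

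Separation of the groups was not limited to the called members. Of the 51 tested, 19 had every mutant library above every WT library and 11 had every mutant library below, or 37.3% and 21.6%. Over all tested features the shares were 13.7% and 15%. An unadjusted p under 0.05 was found for 27 of the 51 members and for 23% of all tested features. The median log2 difference of the 51 was 0.11, against 0.00 for all tested features, with 29 differences above 0 and 22 below. With WT replicate 3 left out the median of the members was 0.03, and with mutant replicate 2 left out it was 0.04.

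Uncalled members without overlap on the higher side were ttr-2, ttr-3, ttr-6, ttr-8, ttr-18, ttr-25, ttr-26, ttr-27, ttr-30, ttr-32, ttr-38 and ttr-51. The log2 differences of ttr-3 (K03H1.3), ttr-8 (R13A5.6), ttr-32 (R13A5.3), ttr-38 (F35G8.2) and ttr-30 (T08A9.2) were 1.06, 0.70, 0.69, 0.68 and 0.67, with SEs of 0.281, 0.173, 0.160, 0.228 and 0.179 and limma adjusted p of 0.0848, 0.0725, 0.0616, 0.146 and 0.0888. All 5 passed when WT replicate 1 was left out (adjusted p = 0.0323, 0.00428, 0.00895, 0.0374 and 0.00697), as did ttr-27 (0.0279). None of these 6 passed when any other library was omitted, with adjusted p of up to 0.237, 0.228, 0.202, 0.329, 0.262 and, for ttr-27, 0.345.

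The values of ttr-8 show the pattern: 153, 103 and 95.7 FPKM in WT and 195, 187 and 178 in the mutant. WT replicate 1 lay well above the other WT libraries and below all mutant libraries. For ttr-3 the values were 22.5, 15.3 and 9.68 FPKM in WT and 36.7, 30.1 and 30.9 in the mutant. The annotated pseudogene ttr-4 had 24.9, 16.5 and 13.3 FPKM in WT and 37.1, 29.3 and 31.2 in the mutant (log2 difference 0.84, adjusted p = 0.0881). How reads were divided between similar copies is not stated in any source used here.

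On the lower side, the uncalled members without overlap were ttr-36, ttr-37, ttr-40, ttr-41, ttr-42, ttr-47, ttr-48 and ttr-53. The largest of these differences was that of ttr-42 (H01M10.3), with 6.10, 7.76 and 1.55 FPKM in WT and 1.16, 0.770 and 0 in the mutant. WT replicate 3 lay near the mutant libraries, and the level amounted to about 10.9 reads per library (log2 difference -1.79, SE 0.550, limma adjusted p = 0.121). Without WT replicate 3 ttr-42 was called (adjusted p = 0.0456, log2 difference -2.33), and with any other library omitted it was not (up to 0.318). In the annotation 52 nt of ttr-42 lie opposite an exon of H01M10.1, which had a higher mean, 26.3 FPKM over all libraries. For ttr-36 (F22A3.7) the values were 172, 173 and 156 FPKM against 133, 132 and 152 (adjusted p = 0.0861), and of the 6 libraries only the omission of mutant replicate 3 gave a call (adjusted p = 0.0390, otherwise up to 0.259). The other 6 log2 differences lay between -0.07 for ttr-41 and -0.42 for ttr-37.

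The groups overlapped for the remaining 21 tested members, with flat values in some and wide spreads in others. For the most abundant gene, ttr-16, limma gave -0.02 as the log2 difference (SE 0.0435, adjusted p = 0.827), and for its neighbour ttr-17 0.00 (SE 0.0557, adjusted p = 0.992). The SE of the log2 difference of ttr-5 was 0.0846, around a value of 0.05. By contrast ttr-22 (T04H1.3) had a log2 difference of 0.82 with an SE of 0.447 (adjusted p = 0.337), from 24.4, 12.4 and 8.59 FPKM in WT and 32.7, 32.3 and 14.8 in the mutant. WT replicate 1 lay above mutant replicate 3 there. The long member ttr-14 (T05A10.3) was as variable, with 24.7, 19.4 and 7.71 FPKM in WT and 29.2, 19.0 and 14.9 in the mutant (log2 difference 0.36, SE 0.446). For ttr-34 (F09A5.9) the WT values ran from 2.76 FPKM in replicate 3 to 15.4 in replicate 1, while the mutant libraries held 10.2 to 14.2. The lowest tested members were ttr-50 (F58B3.9) and ttr-9 (C33A12.15), at means of 1.84 and 1.63 FPKM, about 13.3 and 7.44 reads per library. In the annotation 51 nt of ttr-50 lie opposite an exon of rbm-17, which had a higher mean, 41.9 FPKM over all libraries.

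**Figure D3:**
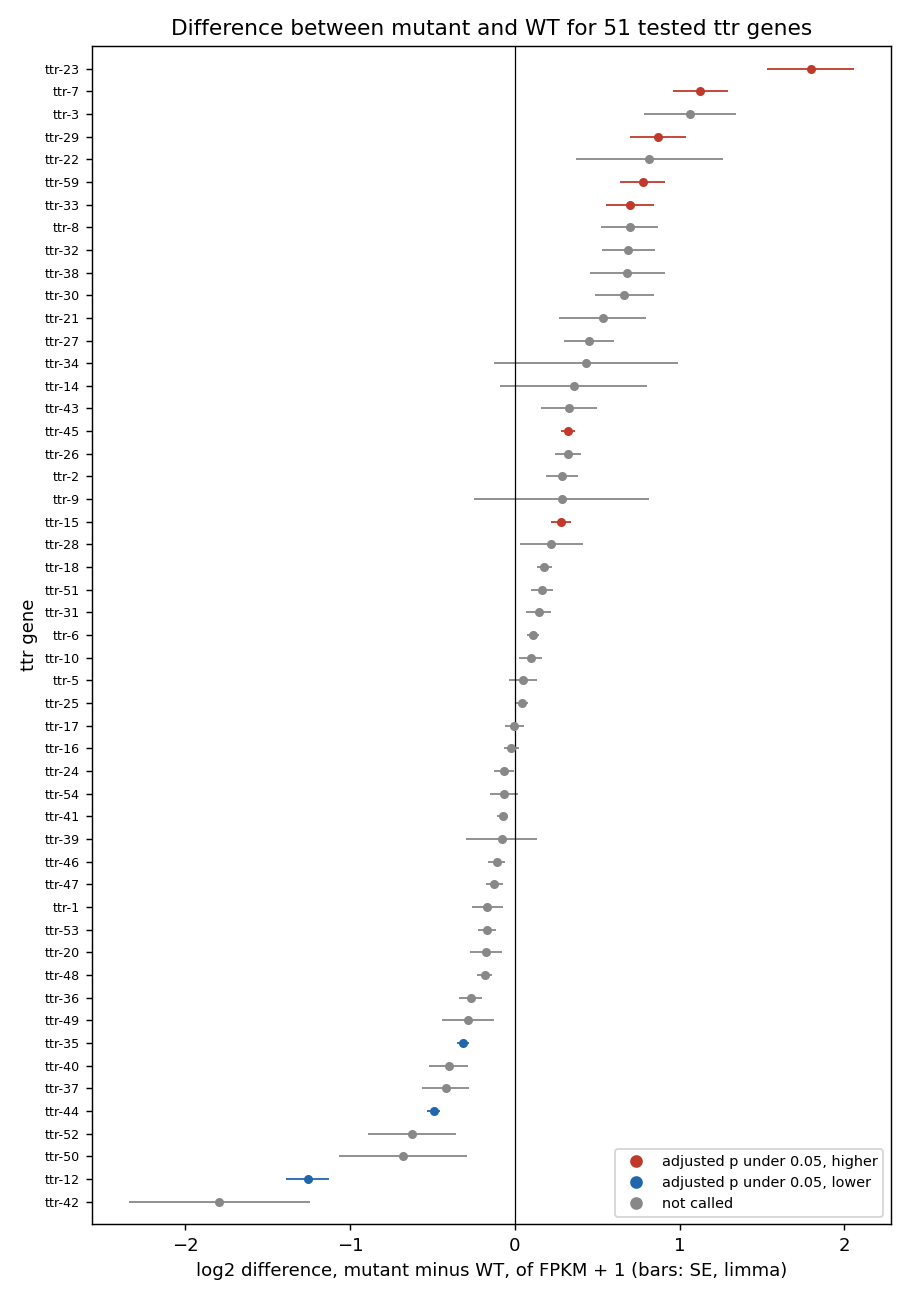
Log2 difference of FPKM + 1, mutant minus WT, for the 51 tested ttr genes, with SE bars from limma, in order of size. Red marks the 7 genes called higher, blue the 3 called lower and grey the 41 not called, among them genes with large differences and wide bars such as ttr-42, ttr-3 and ttr-22.

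The summed level of the 58 members was 4526, 4177 and 3901 FPKM in WT and 4757, 4706 and 4508 FPKM in the mutant. WT replicate 1 lay above mutant replicate 3, so the groups overlapped. As a share of all FPKM in the library this was 0.470 ± 0.0452% for WT and 0.534 ± 0.0229% for the mutant (SD, n = 3). The 7 members that rose made up 12.99 ± 0.610% of the family sum in WT and 18.1 ± 0.0715% in the mutant, a share that their own choice raises. Whether the highest FPKM values move in proportion to the transcript was not tested, so these are shares of FPKM and not of transcript. RNA from whole larvae does not tell fewer cells of a type from less RNA per cell.

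The WT libraries differed from each other over much of the family. Replicate 1 was the highest WT library for 34 of the 51 tested members and replicate 3 the lowest for 34, where over all tested features replicate 1 was highest for 35.3% and replicate 3 lowest for 34.3%. The median deviation from the WT mean, on the log2(FPKM + 1) scale, was 0.14 in replicate 1, 0.00 in replicate 2 and -0.11 in replicate 3. Among the mutant libraries replicate 3 was lowest for 30 of 51 members, against 36.98% of all features, with a median deviation of -0.05.

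Among the 7 genes that rose, replicate 1 was the highest WT library for 6 and replicate 3 the lowest for 5. The 7 uncalled members with log2 differences of at least 0.5 (ttr-3, ttr-8, ttr-21, ttr-22, ttr-30, ttr-32 and ttr-38) all had replicate 1 highest and replicate 3 lowest. A large difference that is not called goes with a wide spread within groups, so the choice of these 7 favours a wide spread. The SD of log2 values was larger in WT than in the mutant for 37 of the 51 members (median 0.166 and 0.0780), against 54.3% of all features (0.128 and 0.119).

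**Figure D4:**
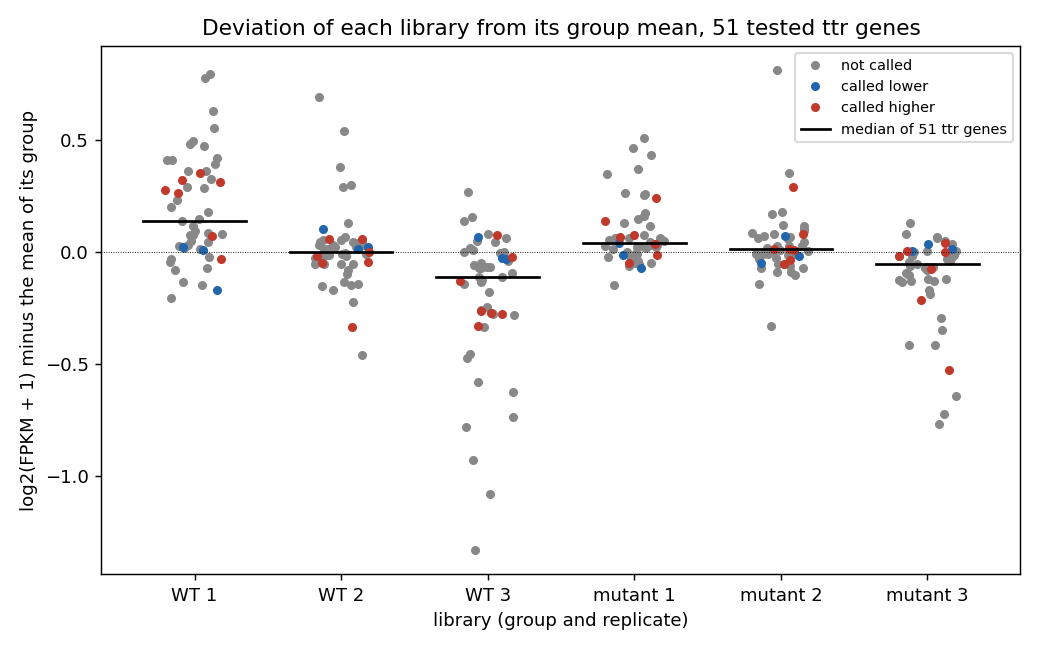
Deviation of log2(FPKM + 1) from the mean of its own group in each library, for the 51 tested ttr genes, with the median as a bar; deviations within a group sum to 0 for each gene. The medians are 0.14, 0.00 and -0.11 in WT replicates 1, 2 and 3, and members called higher (red) follow the grey points in WT replicates 1 and 3.

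Other lists moved between the WT libraries as well. Of 8 genes of the molt, bed-3 and nas-36 fell in the mutant, and their summed level was 756, 909 and 952 FPKM in WT replicates 1, 2 and 3 and 621 to 808 FPKM in the mutant. It was thus lowest in the WT library in which most ttr members were highest. The rank alone was not particular to the molt list. The epidermal, intestinal, body wall muscle, pharyngeal, neuronal, glial and germline lists also had their lowest WT sum in replicate 1. The steps differed in size. In WT replicates 1, 2 and 3 the epidermal sums were 948, 1058 and 1057 FPKM and the intestinal sums 955, 1030 and 1004. Muscle sums were 870, 966 and 957 FPKM, pharyngeal sums 309, 348 and 358 and neuronal sums 702, 716 and 712. Glial sums were 53.1, 53.7 and 59.9 FPKM and germline sums 423, 473 and 491. The summed FPKM of all features was lowest in WT replicate 1 too (878277, 890993 and 918274 in WT replicates 1, 2 and 3). Coelomocyte and excretory cell sums were highest in WT replicate 1. The 8 genes of yolk and oocytes summed to 429, 599 and 184 FPKM in WT and 139 to 218 FPKM in the mutant, and none was called. Every mutant library was below every WT library for vit-3, vit-4 and vit-5, and the groups overlapped for the other genes of that list. The log2 differences of vit-3, vit-4 and vit-5 were -2.25, -2.20 and -2.03 (limma adjusted p = 0.104, 0.117 and 0.134). Of 3 excretory cell genes aqp-8, a water channel, rose from 78.6, 69.6 and 59.3 FPKM to 134, 145 and 99.3 (adjusted p = 0.0380), with the highest WT value in replicate 1. Of 7 epidermal genes wrt-2 and che-14 fell, and their list summed to 948 to 1058 FPKM in WT and 874 to 986 in the mutant. No gene was called among 7 intestinal, 6 body wall muscle, 5 pharyngeal, 8 neuronal, 4 glial, 6 germline and 2 coelomocyte genes tested. Over all tested features 6.4% were called, so lists this short without a call do not show that a tissue was unchanged. The lists with calls are also too short to be set against that share. The defining genes of each of the listed tissues were present, apart from the glial gene ver-1 at no more than 0.166 FPKM. The part of larval timing and tissue makeup in the ttr values was not tested.

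Many ttr genes stand side by side. In the WBcel235 gene order 28 of the 58 members formed 12 runs of adjacent protein-coding ttr genes, 4 of them with 3 genes and 8 with 2. In 10 runs at least 2 members were tested, and in 8 of the 10 all tested members had log2 differences of the same sign. The like share for adjacent genes outside the family was not computed, so the count does not show that neighbours moved together. Adjacent copies can be similar in sequence and share reads, and this was not measured here.

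The run of ttr-59 and ttr-30 had log2 differences of 0.78 and 0.67, of which the first was called, and that of ttr-8 and ttr-32 had 0.70 and 0.69, neither called. In the run of ttr-27, ttr-28 and ttr-29 they were 0.45, 0.22 and 0.87, with ttr-29 called. For ttr-51 and ttr-45 they were 0.17 and 0.32, the second called. Those of ttr-36 and ttr-35 were -0.27 and -0.31, the second called, and those of ttr-40 and ttr-49 were -0.40 and -0.28. The runs of ttr-16 with ttr-17 and of ttr-54 with ttr-53 stayed between -0.17 and 0.00. The differences of ttr-16, ttr-17 and ttr-54 were smaller than their SEs, so the shared sign of these runs, counted among the 8, is not resolved, and that of ttr-16 changed sign in 2 of the 14 alternative settings.

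Signs were mixed in the other 2 runs: ttr-3, ttr-2 and ttr-1 had 1.06, 0.29 and -0.17, and ttr-24, ttr-25 and ttr-26 had -0.07, 0.05 and 0.32. Levels also differed between neighbours. In WT, ttr-2 was at 163 ± 18.5 FPKM, while ttr-3 and ttr-1 beside it were at 15.8 ± 6.40 and 27.99 ± 1.42 FPKM (SD, n = 3).

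**Figure D5:**
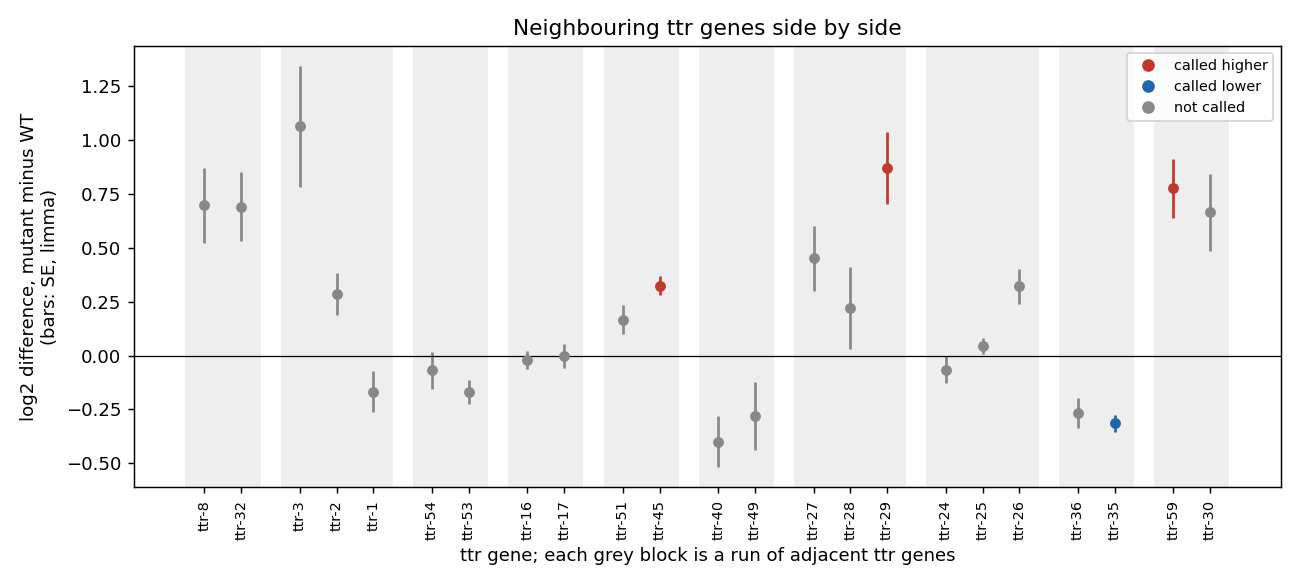
Log2 difference of FPKM + 1, mutant minus WT, with SE bars from limma, for the 23 tested members of 10 runs of adjacent ttr genes, each run in a grey block. In 8 runs the members lie on the same side of 0, with the exceptions of the runs of ttr-3, ttr-2 and ttr-1 and of ttr-24, ttr-25 and ttr-26.

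The member with the best known role, ttr-52 (F11F1.7), was scarce in these larvae. Its values were 3.88, 4.85 and 5.27 FPKM in WT and 3.92, 2.61 and 1.74 in the mutant, about 17.2 reads per library. The groups overlapped, and the log2 difference of -0.63 (SE 0.266) did not pass (limma adjusted p = 0.229). Of 14 genes of engulfment, phosphatidylserine exposure and cell fusion, 1 rose and 13 did not pass, with a median log2 difference of 0.06. A single call among 14 is near the 6.4% of all tested features called, so the count shows nothing particular to the list. The gene that rose was ced-1 (Y47H9C.4), which encodes the engulfment receptor that TTR-52 binds. It was at 43.1, 45.5 and 51.2 FPKM in WT and at 68.2, 69.6 and 70.3 in the mutant, without overlap (log2 difference 0.57, SE 0.0711, limma adjusted p = 0.0105). Omitting WT replicate 2 or mutant replicate 2 ended the call (adjusted p = 0.0547 and 0.0503). Of the partners of TTR-11 and of CED-1, psr-1 held 58.9 to 62.4 FPKM in WT and 50.1 to 64.5 FPKM in the mutant (limma adjusted p = 0.900), the adaptor gene ced-6 had means of 35.3 and 41.8 FPKM (0.127), and the transporter gene ced-7 means of 61.0 and 65.5 FPKM (0.521).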

How the data were processed

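Larvae of the middle of the L3 stage gave 3 WT and 3 blmp-1(tm548) libraries, grouped by sample title. The authors deposited 1 table of FPKM values; the submitters' processing notes name TopHat2 2.0.7, Cufflinks 2.0.2 and Cuffdiff, and the sources used here do not state the build, the annotation or the counting, so no coordinates are printed. Symbols, biotypes, lengths and gene order came from WBcel235 tables by sequence name (44031 of 45343 features matched). Features with a mean of at least 1 FPKM (17058) were set to log2(FPKM + 1) and fitted with limma 3.58.1 in R 4.3.3, group as single term, trended prior variance, Benjamini-Hochberg over all; the method was tested on simulated data. Folds on this scale understate low genes. Depth was estimated from 90 genes of 1000 to 4000 nt whose scaled values were equal within 0.5%; it is not an exact count. No count test was run.

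Named are all called members, the 10 most abundant, ttr-7, ttr-15, ttr-23, ttr-29, ttr-33, ttr-45, ttr-59, ttr-52 and ttr-11, the 5 largest uncalled differences, members without overlap and those below the filter; others were added after their values were seen. Members, lists and these examples were chosen with earlier results of these data known. The 14 alternatives were a pseudocount of 0.1 or 0.5, all features with no limit on their level, a limit of 5 FPKM, rescaled libraries, the replicate number as a block, library weights, no variance trend and each library left out. No sequences of the ttr genes are shown.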

Additional observations from a re-analysis of the deposited data

How the results depend on the processing

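The 7 rises and 3 falls kept their number with pseudocounts of 0.1 and 0.5, a minimum of 5 FPKM and rescaled libraries, and 8 of the 10 remained called with no filter on low values (5 rises and 3 falls). Without a trend in the prior variance 3 members rose (ttr-7, ttr-23 and ttr-45) and 3 fell (460 and 389 of all tested features, from 570 and 522). With library weights 20 rose and 9 fell, and 3 engulfment genes were called instead of 1; 2005 of all tested features were then higher and 2112 lower. With a library left out, 0 to 12 members rose, 2 to 4 fell and 0 or 1 engulfment genes were called by limma (1 to 3 at an unadjusted p under 0.05), while 192 to 620 of all tested features rose and 177 to 712 fell. The cause of these shifts was not tested. Whether the replicate numbers pair the samples was not resolved. Same-numbered libraries had low correlations of deviations, of 0.133, -0.0352 and 0.0697 for replicates 1, 2 and 3. Replicates 1 and 3 of either group correlated best with the same number, and replicate 2 of either group correlated better with another number. With the replicate number as a block 6 members rose and 3 fell (504 and 425 of all tested features); ttr-15 and ttr-33 were lost (limma adjusted p = 0.0699 and 0.0550) and ttr-32 gained (0.0486), and the blmp-1 transcript had an adjusted p of 0.0217. The blmp-1 fall held in all 14 settings, and the ratio of summed ttr levels, mutant to WT, was 1.11 (1.07 to 1.15 with a library left out). Depth limits members under about 5 FPKM, such as ttr-9, at about 7.44 reads per library.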
